A study of Mus musculus with 6 samples.

Results

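Genes of calcium-binding proteins and calcium sensors were followed through the cells of CA1, namely Calb1, Calb2, Pvalb, Calm2, Calm3, Hpca, Hpcal4, Ncald and Vsnl1. These 9 genes were taken as a fixed list of names from the 20234 genes of the table. CA1 tissue of 3 placebo-treated male C57Bl6 mice (mice 1, 3 and 5) and 3 EPO-treated male C57Bl6 mice (mice 2, 4 and 6) had been profiled by Drop-seq, which catches single cells in droplets with barcoded beads and tags each transcript with a unique molecular identifier (UMI). All mice received 1 injection at postnatal day 28, either placebo or 5000 IU/kg recombinant human erythropoietin (EPO), a cytokine known for red cell formation and studied here for effects on neurons, and were sacrificed 6 h later. Each mouse was 1 library. Sample titles also carry a D number of unstated meaning, 1, 1 and 2 for mice 1, 3 and 5 and 1, 2 and 2 for mice 2, 4 and 6. It was thus not balanced between the treatments. Of 6000 deposited barcodes, 973 were retained, 390 from placebo and 583 from EPO mice. They had over 1000 genes but no more than 8000, and 27 mitochondrially encoded genes (mt- genes) made up 40% of their UMIs or less. Where 3 values are given per treatment, they stand in the order of mice 1, 3, 5 and of mice 2, 4, 6.

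Calcium entering a neuron is bound by proteins of the EF-hand family, so called after the loop that holds the ion. Some act mainly as buffers that shape calcium signals, such as calbindin (Calb1), calretinin (Calb2) and parvalbumin (Pvalb), which are classical labels of neuron types in the hippocampus. Others act as sensors that change shape and bind partners. Calmodulin (Calm2 and Calm3) serves enzymes in nearly all cells, while hippocalcin (Hpca), hippocalcin-like 4 (Hpcal4), neurocalcin delta (Ncald) and visinin-like 1 (Vsnl1) belong to the neuronal calcium sensors, most of which carry a lipid anchor that brings them to membranes.

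In GRCm38 (GENCODE vM21), all 9 are protein-coding genes. Calb1 lies at chr4:15881264-15908064, Hpcal4 at chr4:123183227-123194701 and Hpca at chr4:129111570-129122036. Calm3 lies at chr7:16915379-16924114, Calb2 at chr8:110137502-110168210, Vsnl1 at chr12:11325242-11436613 and Calm2 at chr17:87433412-87446935. Ncald at chr15:37366175-37792570 and Pvalb at chr15:78191114-78206400 share a chromosome without being neighbors. Promoter sequences from RefSeq (GRCm38.p6), from 250 bases before to 50 after a transcription start, matched 5 of the 9 genes. Hpca, Calm3 and Vsnl1 were lower both in oligodendrocyte-like cells and at a high mt- share, while Hpcal4 was lower in oligodendrocyte-like cells but not at a high mt- share. The window of the most upstream start of each of these is shown. Capitals mark the GC box GGGCGG on either strand.
Hpca, chr4:129121698-129121997, minus strand: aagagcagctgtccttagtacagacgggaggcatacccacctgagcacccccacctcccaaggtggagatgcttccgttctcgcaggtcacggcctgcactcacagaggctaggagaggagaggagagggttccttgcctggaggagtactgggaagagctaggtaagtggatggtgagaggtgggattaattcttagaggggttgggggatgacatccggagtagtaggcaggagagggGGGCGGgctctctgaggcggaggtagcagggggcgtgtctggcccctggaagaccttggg
Calm3, chr7:16923983-16924282, minus strand: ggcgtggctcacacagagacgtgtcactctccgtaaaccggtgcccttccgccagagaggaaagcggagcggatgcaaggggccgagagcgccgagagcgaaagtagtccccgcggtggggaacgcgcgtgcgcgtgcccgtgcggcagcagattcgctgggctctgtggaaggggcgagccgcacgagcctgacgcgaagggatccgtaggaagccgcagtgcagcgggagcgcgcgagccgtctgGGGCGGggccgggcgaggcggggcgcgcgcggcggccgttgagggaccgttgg
Vsnl1, chr12:11436529-11436828, minus strand: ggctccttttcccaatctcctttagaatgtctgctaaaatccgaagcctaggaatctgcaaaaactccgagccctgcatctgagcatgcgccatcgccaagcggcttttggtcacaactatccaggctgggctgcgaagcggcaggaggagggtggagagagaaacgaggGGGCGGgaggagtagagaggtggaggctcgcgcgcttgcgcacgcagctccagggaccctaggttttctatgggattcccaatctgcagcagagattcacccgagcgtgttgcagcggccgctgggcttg
Hpcal4, chr4:123183254-123183553, plus strand: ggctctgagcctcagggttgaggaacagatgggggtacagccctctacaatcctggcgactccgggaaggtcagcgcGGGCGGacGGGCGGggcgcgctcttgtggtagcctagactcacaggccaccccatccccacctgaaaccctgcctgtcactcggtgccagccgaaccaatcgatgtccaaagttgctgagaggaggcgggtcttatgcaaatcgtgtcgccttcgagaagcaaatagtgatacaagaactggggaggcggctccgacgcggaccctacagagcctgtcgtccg
All 4 hold the GC box, as do 5 of the 9 windows of the 5 genes and 35.7% of 32851 promoter windows of this length. Neither the TATA box letters TATAAA, found in 13.6% of all windows, nor the cyclic AMP response element TGACGTCA, found in 1.79%, occurs in them on either strand.

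Retained cells held 204479 to 1948490 UMIs per mouse, with 43 cells in placebo mouse 3 and 148 to 271 in each of the other mice. The median per cell was 4088 to 4924 UMIs, and the median mt- share was between 3.58% (EPO mouse 6) and 18.3% (EPO mouse 2). Placebo mouse 1 and EPO mouse 4 shared barcodes. Among retained cells, 26 barcode sequences occurred in both, against 0 in all other pairs of mice, and profiles of the same sequence correlated at a median r of 0.763 against 0.408 for different sequences. Retained barcodes whose sequence is present in both mice held 58.9% of the UMIs of placebo mouse 1 and 8.48% of those of EPO mouse 4, so the comparisons were also made without them. How these sequences came to be in both libraries was not tested.

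Clusters were built without the 9 genes and named from markers. The 484 glutamatergic-like cells contained UMIs of Slc17a7, the vesicular glutamate transporter, in 55.6% of cells and of Gad1, which makes GABA, in 2.69%. In 54 GABAergic-like cells these shares were 3.70% and 72.2%. Of these 54 cells, 9 held 14 to 224 UMIs of mural cell markers and at most 1 of GABAergic markers, against at most 3 mural UMIs in each of the others. The remaining classes were 129 oligodendrocyte-like, 76 astrocyte-like, 39 endothelial-like, 38 oligodendrocyte precursor-like and 18 microglia-like cells. Another 135 cells, cluster 1, stayed unnamed. They had the highest median mt- share (21.5%) and all 7 glutamatergic markers in at least 10% of cells, at a summed level of 1213 against 2146 UMIs per 1000000 (counts per 1000000 UMIs, CPM) in glutamatergic-like cells. Their summed level of oligodendrocyte markers was 2608 CPM, against 1142 CPM in glutamatergic-like and 154500 CPM in oligodendrocyte-like cells. The oligodendrocyte precursor-like cells (cluster 9) held 4309 CPM of precursor markers but also 30230 CPM of oligodendrocyte markers. By mean log level the 2 lists were close there (1.417 and 1.388), so this class name is a weak one. Pdgfra and Vcan were among its leading genes, as were Gpr17, Bcas1 and Enpp6.

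Calm2 had the highest level of the 9 genes in glutamatergic-like cells, in UMIs that count transcript 3' ends and are not scaled by length. It stood at 3918, 4137 and 5114 CPM after placebo and at 3760.2, 4041 and 4540.5 CPM after EPO (mean 4252 ± 497, SD, n = 6). GABAergic-like cells had 952 ± 511 CPM (n = 5), with a range from 296 to 1587 CPM that did not reach any value of the whole glutamatergic-like class. Cluster 0, the largest glutamatergic-like cluster (145 cells), had 507 to 957 CPM in the 6 mice, inside that range. Oligodendrocyte-like (361 ± 89.8, n = 6), astrocyte-like (378 ± 326, n = 6), endothelial-like (326 ± 133, n = 5) and oligodendrocyte precursor-like cells (284 ± 194 CPM, n = 3) did not differ from each other beyond their spread. Barcodes with at most 500 genes were taken as free RNA and cell fragments, without a test of their content. They had 610 ± 138 CPM (n = 6), more than the mean of each of these glial and vascular classes. Microglia-like cells, with at least 5 cells in 2 mice, had 955 and 1128 CPM.

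Calm3, which encodes the same calmodulin protein, was spread more evenly. It stood at 556 ± 79.2 CPM in glutamatergic-like cells, with 453 to 642 CPM in the 6 mice. Astrocyte-like cells had 264 ± 95.9 CPM, oligodendrocyte-like cells 241 ± 64.4 CPM and GABAergic-like cells 227 ± 159 CPM, and these 3 classes overlapped. The ratio of Calm2 to Calm3 UMIs was 7.71 ± 0.807 in glutamatergic-like cells (range 6.47 to 8.66, n = 6). It was 3.85 ± 0.130 in GABAergic-like cells (3.77 to 4.00, in the 3 mice with at least 10 Calm3 UMIs, and 3.00 to 3.74 without the cells rich in mural markers) and 1.595 ± 0.599 in oligodendrocyte-like cells (0.875 to 2.29, n = 6). In these mice the 3 ranges did not overlap. The GABAergic-like range leaves out placebo mouse 1, with 668 CPM of Calm2 and 66.8 CPM of Calm3, and EPO mouse 2, with 296 and 74.0 CPM. Cluster 0, which is glutamatergic-like, had ratios of 2.65 to 6.35 in 4 mice, a range that includes the GABAergic-like ratios.

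Hpca, a sensor named after the hippocampus, had 1547, 1660 and 1642 CPM after placebo and 1509, 1078 and 1600 CPM after EPO in glutamatergic-like cells. GABAergic-like cells had 92.5 to 247 CPM (n = 5), with a mean of 146 ± 62.5 CPM below the 216 ± 139 CPM of barcodes with at most 500 genes. At a fixed 1500 UMIs per cell, 69.6% of glutamatergic-like cells (95% exact interval 65.3 to 73.7%) but 16.7% of GABAergic-like cells (7.915 to 29.3%) had a UMI of Hpca, and 5.43% of oligodendrocyte-like cells (2.21 to 10.9%). Without thinning, the shares were 87.6%, 38.9% and 17.8% at median depths of 6046, 4646 and 5194 UMIs per cell. Intervals cover counting error only.

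Hpcal4, a close relative of Hpca, was at 187, 218 and 240 CPM after placebo and at 206, 181 and 245 CPM after EPO in glutamatergic-like cells. GABAergic-like cells (49.5 ± 24.5 CPM) and oligodendrocyte precursor-like cells (40.4 ± 21.6 CPM) overlapped, as did astrocyte-like (5.95 ± 9.43 CPM) and endothelial-like cells (3.98 ± 8.89 CPM). Vsnl1, which is known as a marker of neuronal injury in body fluids, stood at 576 ± 154 CPM in glutamatergic-like and 332 ± 204 CPM in GABAergic-like cells, with overlapping ranges. It was at 11.3 ± 14.8 CPM in oligodendrocyte-like cells, under the 111 ± 28.7 CPM of barcodes with at most 500 genes.

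Ncald departed from the other sensors in its class means. Among the classes, its mean was highest in oligodendrocyte precursor-like cells, at 512 CPM in placebo mouse 1 and 289 and 344 CPM in EPO mice 4 and 6, the 3 mice with at least 5 such cells. These values exceeded the 71.6 ± 25.8 CPM of barcodes with at most 500 genes and all 6 values of glutamatergic-like cells (122 to 272 CPM). Glutamatergic-like cells (190 ± 59.1 CPM) and GABAergic-like cells (170 ± 113 CPM) did not differ beyond their spread. Within the glutamatergic-like class, cluster 6 had 788 to 1183 CPM in 5 mice, above all values of oligodendrocyte precursor-like cells. Mice 1 and 4 shared barcodes, and the level of oligodendrocyte precursor-like cells was not examined without them. Oligodendrocyte-like cells had 55.2 ± 16.1 CPM. The precursor-like class also carried oligodendrocyte markers, and how its Ncald was shared among its cells was not examined.

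**Figure D1:**
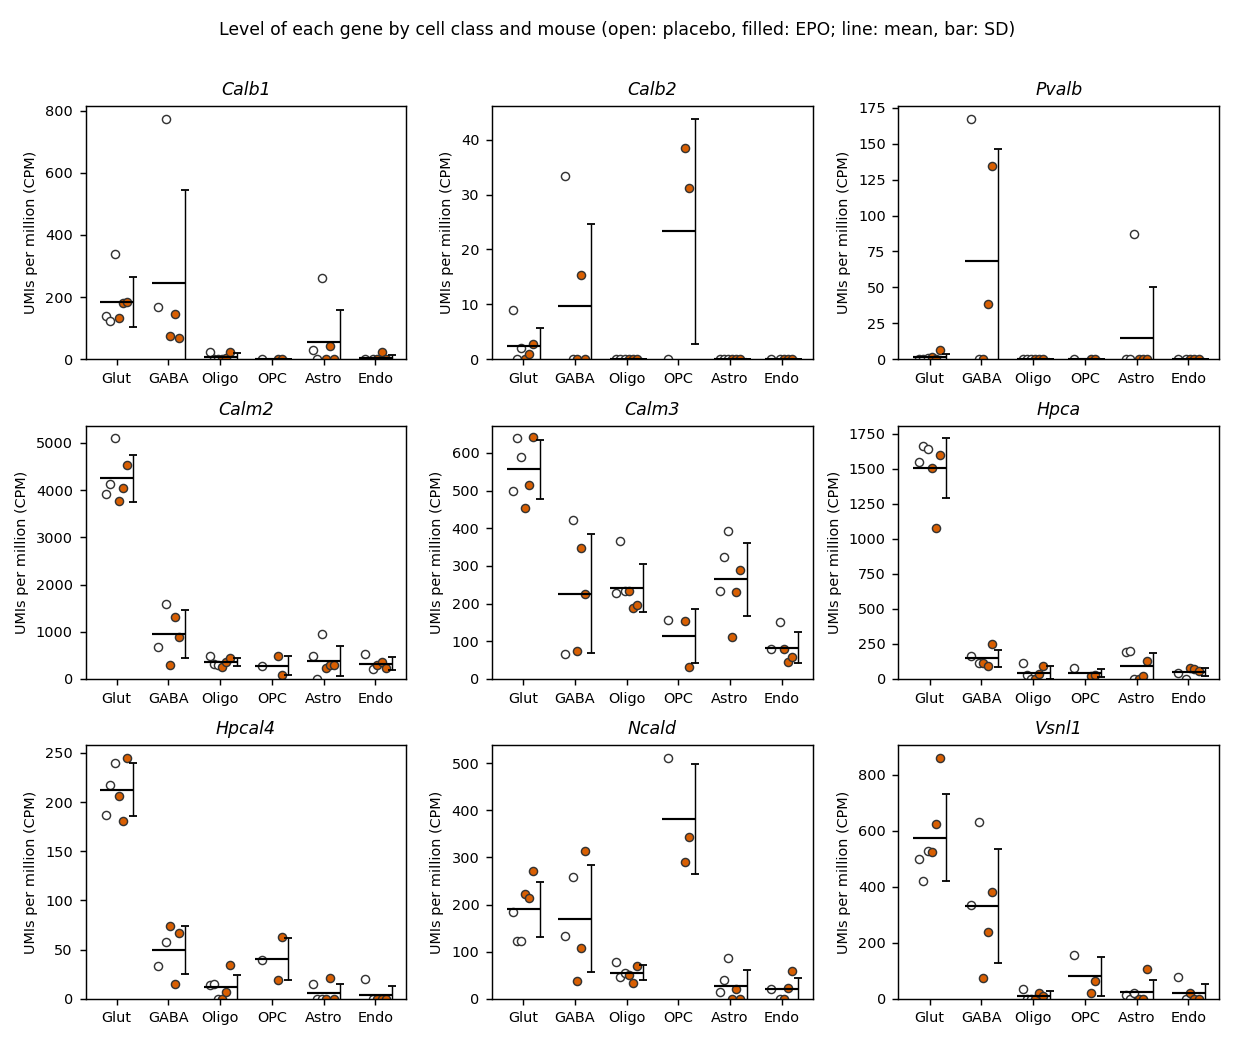
Level of each gene in UMIs per 1000000 UMIs (CPM) (vertical axes, linear) in 6 cell classes (Glut, glutamatergic-like; GABA, GABAergic-like; Oligo, oligodendrocyte-like; OPC, oligodendrocyte precursor-like; Astro, astrocyte-like; Endo, endothelial-like). Each point is 1 mouse with at least 5 cells of the class, lines are means and bars SD; Calm2, Hpca and Hpcal4 of every mouse are highest in glutamatergic-like cells, while Ncald reaches 289 to 512 CPM in OPC.

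Of the buffers, Calb1 was found in 206 cells, Pvalb in 16 and Calb2 in 14. Calb1 in glutamatergic-like cells was at 139, 122 and 337 CPM after placebo and at 132, 181 and 186 CPM after EPO, so that placebo mouse 5 stood above the others. GABAergic-like cells had 67.3 to 167 CPM in 4 mice and 775 CPM in placebo mouse 5, where 1 cell held 65 of the 110 Calb1 UMIs of the class. Of the 1055 Calb1 UMIs of all retained cells, 10.4% lay in GABAergic-like cells.

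Pvalb was represented by 34 UMIs, of which 16 UMIs lay in 6 GABAergic-like cells. Those 6 cells came from placebo mouse 1 (1 cell), EPO mouse 4 (3 cells) and EPO mouse 6 (2 cells). In 3 of them UMIs of Lhx6, a transcription factor of interneurons from the medial ganglionic eminence, were found, as in 7 of all 54 cells, and in 3 those of the neuropeptide gene Tac1, as in 4 of all 54. UMIs of genes known from other neuron types were found in the 6 cells as well, with the neuropeptide gene Cck in 5 (22 of all 54), the cannabinoid receptor gene Cnr1 in 3 (26 of all 54), Adarb2 in 1 (25 of all 54) and Slc17a7 in 1 (2 of all 54). Of the other Pvalb UMIs, 9 lay in glutamatergic-like cells, 5 in cluster 1 and 4 in 1 astrocyte-like cell. A Pvalb UMI was found in 0 of 129 oligodendrocyte-like cells, which allows a share of cells with a UMI of up to 2.33%. Calb2 was represented by 20 UMIs, of which 6 lay in 4 GABAergic-like cells, 6 in 2 cells of cluster 6, which is glutamatergic-like, and 3 in 3 oligodendrocyte precursor-like cells. The share of cells with a Calb2 UMI was thus 7.41% of GABAergic-like (95% exact interval 2.06 to 17.9%) and 7.89% of oligodendrocyte precursor-like cells (1.66 to 21.4%). The 4 GABAergic-like cells with Calb2 all held UMIs of Vip, present in 6 of 54 cells and known from interneurons that target other interneurons. All 4 also held UMIs of Adarb2, present in 25 of 54, and 1 of them held UMIs of Slc17a7. Pvalb and Calb2 were together in 0 of 54 cells, Pvalb and Calb1 in 1, and 31 cells had none of these 3 buffers. At this depth the lack of a UMI does not show that a cell lacked the transcript. The Pvalb cell of placebo mouse 1 had a barcode sequence shared with EPO mouse 4, and without shared barcodes 11 Pvalb UMIs and 5 Calb2 UMIs were left in the class.

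Within the glutamatergic-like cells, the genes split the 6 clusters in different ways. Cluster 3 (125 cells), led by Spink8 and Lefty1, and cluster 10 (37 cells), led by Gapdh and ribosomal genes and made up of 15 cells of mouse 1 and 22 of mouse 4, the mice that shared barcodes, had the highest Calb1 and Hpca. Calb1 was at 352 and 378 CPM there with cells pooled over mice, at 127 CPM in cluster 4, at 51.4 CPM in cluster 0, at 43.2 CPM in cluster 6 and at 7.75 CPM in cluster 11. At 1500 UMIs per cell, 28.8% of the cells of cluster 3 had a Calb1 UMI against 1.56% of cluster 6. Ncald had instead 936 CPM in cluster 6 (with Mef2c among its leading genes) and 422 CPM in cluster 11 (led by Nts and Lxn) against 35.3 CPM in cluster 3, so that clusters 6 and 11 held 88.5% of the Ncald UMIs of glutamatergic-like cells. Vsnl1 was also highest in clusters 11 (1441 CPM) and 6 (1418 CPM). Hpcal4 varied least, from 120 CPM in cluster 11 to 258 CPM in cluster 3.

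Over the 12 clusters with at least 20 cells, log2(CPM + 10) of Calm2 and Hpca followed each other (r = 0.922), as did Calm2 and Vsnl1 (r = 0.903) and Calm2 and Calm3 (r = 0.900). The value for Calb1 and Ncald was -0.341. Among 8293 other genes with at least 100 UMIs, those with the most similar pattern were Sncb (0.992), Sdr39u1 and Srpk2 for Vsnl1, Mmp17 (0.9825), Fam105a and Cnksr2 for Hpcal4, Ywhah (0.973), Lysmd2 and Actr3b for Calm2, and Rgs14 (0.9698), Rprml and Kctd1 for Hpca. For Calm3 they were Vamp2 (0.930), 2210016L21Rik and Itpa, for Calb1 Nell1 (0.917), Cys1 and Galk2, and for Ncald Dpp10 (0.915), Satb1 and Lrrtm3. For Calb2 (20 UMIs) they were Lnx1 (0.8795), Qpct and Zfp790, and for Pvalb (34 UMIs) Npy (0.879), Acta2 and Hapln1. Acta2 is one of the mural markers, while all 16 Pvalb UMIs of GABAergic-like cells lay outside the 9 cells rich in mural markers. These correlations describe clusters of the same libraries, which differ in depth and mt- share.

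**Figure D2:**
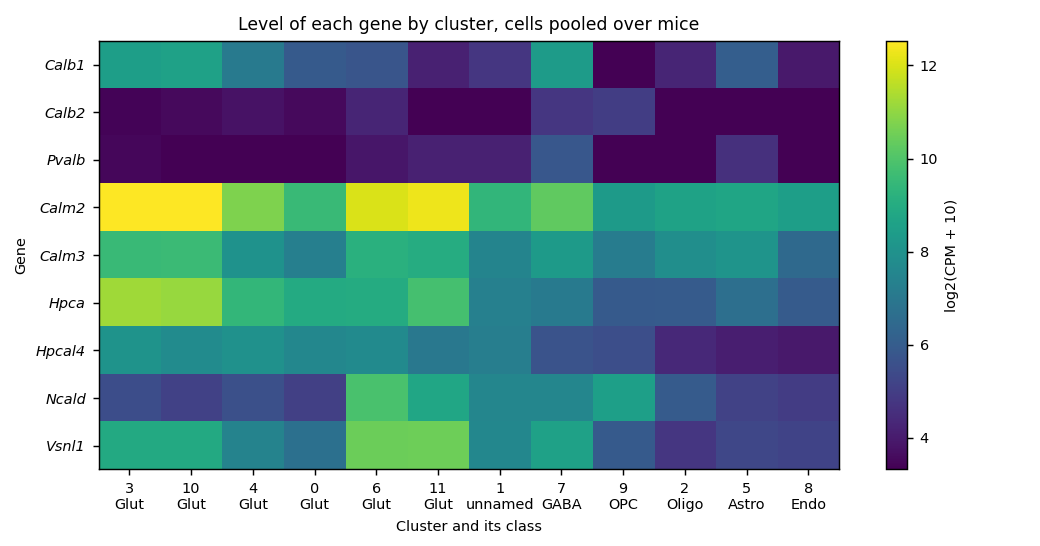
Level of each gene (rows) as log2(CPM + 10) in the 12 clusters with at least 20 cells (columns, number and class), cells pooled over mice. Ncald is brightest in clusters 6 and 11 and dark in clusters 3 and 10, where Calb1 is bright.

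GABAergic-like cells were compared with glutamatergic-like cells of the same mice to ask which members differ between neuron types. By edgeR, with the mouse as a block in the 5 mice with at least 5 cells of each class, 4 of the 7 members tested were lower and 0 higher, where 14.9% of 5708 genes were called (6.18% higher and 8.76% lower). The log2 difference was -3.23 ± 0.339 for Hpca (SE, adjusted p = 2.24e-19), -2.13 ± 0.446 for Hpcal4 (adjusted p = 3.93e-05), -2.08 ± 0.276 for Calm2 (adjusted p = 2.83e-12) and -1.01 ± 0.32 for Calm3 (adjusted p = 0.0154). For the others it was -0.73 ± 0.310 for Vsnl1 (adjusted p = 0.0992), 0.26 ± 0.344 for Calb1 and 0.00 ± 0.328 for Ncald. Pvalb and Calb2 did not pass the filter on low counts; without the filter, Pvalb was higher by 4.63 ± 0.810 (adjusted p = 7.51e-07), a fitted value that rests on 16 UMIs in GABAergic-like and 9 in glutamatergic-like cells, and Calb2 had a difference of 1.59 ± 1.39 (adjusted p = 0.678). The calls of Hpca, Hpcal4 and Calm2 were also made without the shared barcodes and without the 9 cells rich in mural markers. That of Calm3 was lost in both cases (-0.84, adjusted p = 0.0658, and -0.62, adjusted p = 0.184), as well as without placebo mouse 1 (-0.82, adjusted p = 0.0727), without EPO mouse 6 (-0.98, adjusted p = 0.0809), at up to 20% mt- UMIs (-0.62, adjusted p = 0.347) and with classes from marker sums (-0.58, adjusted p = 0.229). The fits without cells rich in mural markers, at up to 20% mt- UMIs and by marker sums had fewer mice. They used 6 sums of UMIs per mouse and class, against 10 in the main fit. In these 3 fits, fewer mice and the change of cells cannot be told apart. Vsnl1 was called lower by edgeR without placebo mouse 5 (-1.15, adjusted p = 0.0175), by library totals (-0.85, adjusted p = 0.0324) and without the filter on low counts (-1.16, adjusted p = 0.0101). The median mt- share was 16.2% in GABAergic-like and 6.91% in glutamatergic-like cells, and cells of like mt- share were not compared. With cells pooled over mice, glutamatergic-like cluster 0 had less Calm2 (754 CPM), Calm3 (149 CPM) and Vsnl1 (96.1 CPM) than GABAergic-like cells (1223, 310 and 372 CPM). It had more Hpca (481 against 127 CPM) and Hpcal4 (181 against 41.4 CPM).

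Among 44 other EF-hand genes, of which 43 were in the table, 27 were tested here, and 5 were higher and 5 lower in GABAergic-like cells (median log2 difference -0.26, against -0.12 over all genes tested). Kcnip1, a potassium channel partner, was higher by 4.96 ± 0.4659 (adjusted p = 4.39e-24) and Necab1 by 1.94 ± 0.342 (adjusted p = 4.26e-07), followed by Sparcl1, Efhd2 and Spock2. Ppp3r1, the regulatory subunit of calcineurin, fell by 2.61 ± 0.352 (adjusted p = 7.29e-12), along with Tesc, Kcnip4 and Caln1. Kcnip3 was also called lower, with 0 UMIs in GABAergic-like and 174 UMIs in glutamatergic-like cells. The value of Kcnip1 rests on 40 UMIs in GABAergic-like and 20 in glutamatergic-like cells, and Tesc had 2 UMIs in GABAergic-like cells.

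All 7 members tested were lower in oligodendrocyte-like than in glutamatergic-like cells of the same 6 mice, where edgeR called 64.8% of 4717 genes (29.5% higher and 35.3% lower). The log2 difference was -4.70 ± 0.295 for Vsnl1 (SE, adjusted p = 3.41e-29), -4.496 ± 0.256 for Hpca, -3.85 ± 0.362 for Hpcal4, -3.80 ± 0.391 for Calb1, -3.19 ± 0.208 for Calm2, -1.51 ± 0.252 for Ncald and -0.89 ± 0.175 for Calm3 (adjusted p = 4.23e-06). Oligodendrocyte-like cells held 8 UMIs of Calb1, 9 of Hpcal4 and 15 of Vsnl1, against 908, 954 and 2801 in glutamatergic-like cells. These genes thus passed the filter on low counts by their counts in glutamatergic-like cells. The sizes of their differences rest on few UMIs in oligodendrocyte-like cells. Without the shared barcodes, all 7 calls were made again. With each cell's class taken from its marker sums instead of its cluster, the differences were smaller, at -1.28 for Vsnl1, -2.21 for Hpca, -0.75 for Hpcal4, -2.37 for Calb1, -1.59 for Calm2 and -0.85 for Calm3, all still called, while that of Ncald was -0.03 ± 0.272 (adjusted p = 0.945). Of the other EF-hand genes, 6 of 23 tested were higher, led by S100a16 (6.09 ± 0.323), Efhd1 (5.93 ± 0.430) and S100a13 (5.16 ± 0.402), and 11 were lower, led by Ppp3r1, Sparcl1, Caln1, Spock2 and Micu3. S100a16, Efhd1 and S100a13 had 18, 8 and 16 UMIs in glutamatergic-like cells, against 209, 89 and 91 in oligodendrocyte-like cells. Caln1 had 2 UMIs in oligodendrocyte-like cells. The sizes of these differences rest on few counts in the class where the gene is low.

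The relation to the mt- share was examined by splitting the glutamatergic-like cells of each mouse at its median, which lay between 2.64% (EPO mouse 6) and 17.9% (EPO mouse 2), and counting only UMIs outside mt- genes. Of the 7 members tested, 6 were lower above the median and 0 higher, where edgeR with the mouse as a block called 42.6% of 5451 genes (20.3% higher and 22.3% lower). Calm2 had 1830.6 ± 917 CPM above and 5475 ± 439 CPM below the median and was lower above it in 6 of 6 mice (log2 difference -1.53 ± 0.212, adjusted p = 9.55e-11). The difference was -1.41 ± 0.212 for Vsnl1, -1.18 ± 0.200 for Hpca, -1.14 ± 0.236 for Ncald, -1.10 ± 0.200 for Calm3 and -0.79 ± 0.231 for Calb1 (adjusted p = 0.00258). Hpca, Calm3, Calb1 and Vsnl1 were lower in 6 of 6 mice, Vsnl1 in placebo mouse 5 by less than 1 CPM, and Ncald in 4 of 6. The same 6 members were called without the shared barcodes. Without EPO mouse 4 or EPO mouse 6, Calb1 lost its call (adjusted p = 0.0553 and 0.0532), and with classes from marker sums Ncald did (-0.09 ± 0.232, adjusted p = 0.786), where Vsnl1 was at -0.75 ± 0.183 and still called.

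Hpcal4 did not follow the other sensors. Above the median it had 238, 282 and 297 CPM after placebo and 314, 216 and 197 CPM after EPO. At or below the median it had 199, 223 and 230 CPM after placebo and 209, 189 and 266 CPM after EPO. It was thus higher above the median in 5 of 6 mice, with a log2 difference of 0.37 ± 0.204 that did not pass the test (adjusted p = 0.132, and 0.0566 without the shared barcodes). Over all glutamatergic-like cells pooled by mt- share, Hpcal4 was at 236 CPM at up to 5%, 188 CPM at 5 to 10%, 282 CPM at 10 to 20% and 295 CPM at 20 to 40%. Calm2 went from 5701 to 4420, 1574 and 984 CPM over the same bins. Of the other EF-hand genes, 8 of 24 tested were lower above the median, Sparcl1, Cetn2, Pdcd6, Kcnip4 and Ppp3r1 with the smallest adjusted p, and 0 were higher.

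Cluster membership moved with this split. Of the cells of cluster 0, 91.7% lay above the median of their mouse, as did 76.1% of cluster 4, against 14.4% of cluster 3, 25% of cluster 6, 14.3% of cluster 11 and 2.70% of cluster 10. Within cluster 0 alone, where 3 members could be tested among 762 genes, 0 members and 0 genes were called, with 87 genes at an unadjusted p under 0.05. There the log2 difference of Calm2 was -0.43 ± 0.195 (adjusted p = 0.369). With mouse and cluster both as blocks, 0 of 5 members and 0 of 1144 genes were called, with 56 at an unadjusted p under 0.05, and the difference was -0.22 ± 0.157 for Calm2, -0.42 ± 0.225 for Calm3, -0.14 ± 0.180 for Hpca and 0.14 ± 0.222 for Vsnl1. That of Hpcal4 was 0.73 ± 0.294 (unadjusted p = 0.0186, adjusted p = 0.918). DESeq2 and limma were not run on these smaller sets.

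The same cells were split at the median UMI depth of each mouse, 4357 to 6916 UMIs per cell. Of 7 members tested, 5 were higher above the median and 0 lower, where 36.6% of 4210 genes were called (18.6% higher and 18.1% lower). Calb1 was higher by 1.49 ± 0.234 (adjusted p = 6.82e-07), Calm2 by 1.095 ± 0.181, Calm3 by 0.96 ± 0.175, Vsnl1 by 0.85 ± 0.205 (0.56 ± 0.158 at up to 20% mt- UMIs, still called) and Hpca by 0.78 ± 0.174 (adjusted p = 0.00025). The values were -0.26 ± 0.187 for Hpcal4 and 0.21 ± 0.262 for Ncald (adjusted p = 0.285 and 0.555). Calb1, Calm2, Calm3 and Hpca were higher above the median in 6 of 6 mice, Vsnl1 in 5, Ncald in 3 and Hpcal4 in 2. The same 5 members were called without the shared barcodes. Of the other EF-hand genes, 6 of 22 were higher, led by Cetn2, Pdcd6, Ppp3r1, Tesc and Necab1, and 0 lower.

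Depth and cluster also moved together, since 77.6% of cluster 3 and 89.2% of cluster 10 but 17.2% of cluster 0 lay above the median depth. Within cluster 0 alone, 0 of 2 members and 0 of 577 genes were called, with 21 at an unadjusted p under 0.05. With mouse and cluster as blocks, 0 of 5 members and 3 of 1314 genes were called, and the difference of Calm2 was 0.03 ± 0.12. The values of Hpca were then -0.30 ± 0.161 and those of Vsnl1 -0.26 ± 0.190, opposite in sign to the comparison over all clusters.

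**Figure D3:**
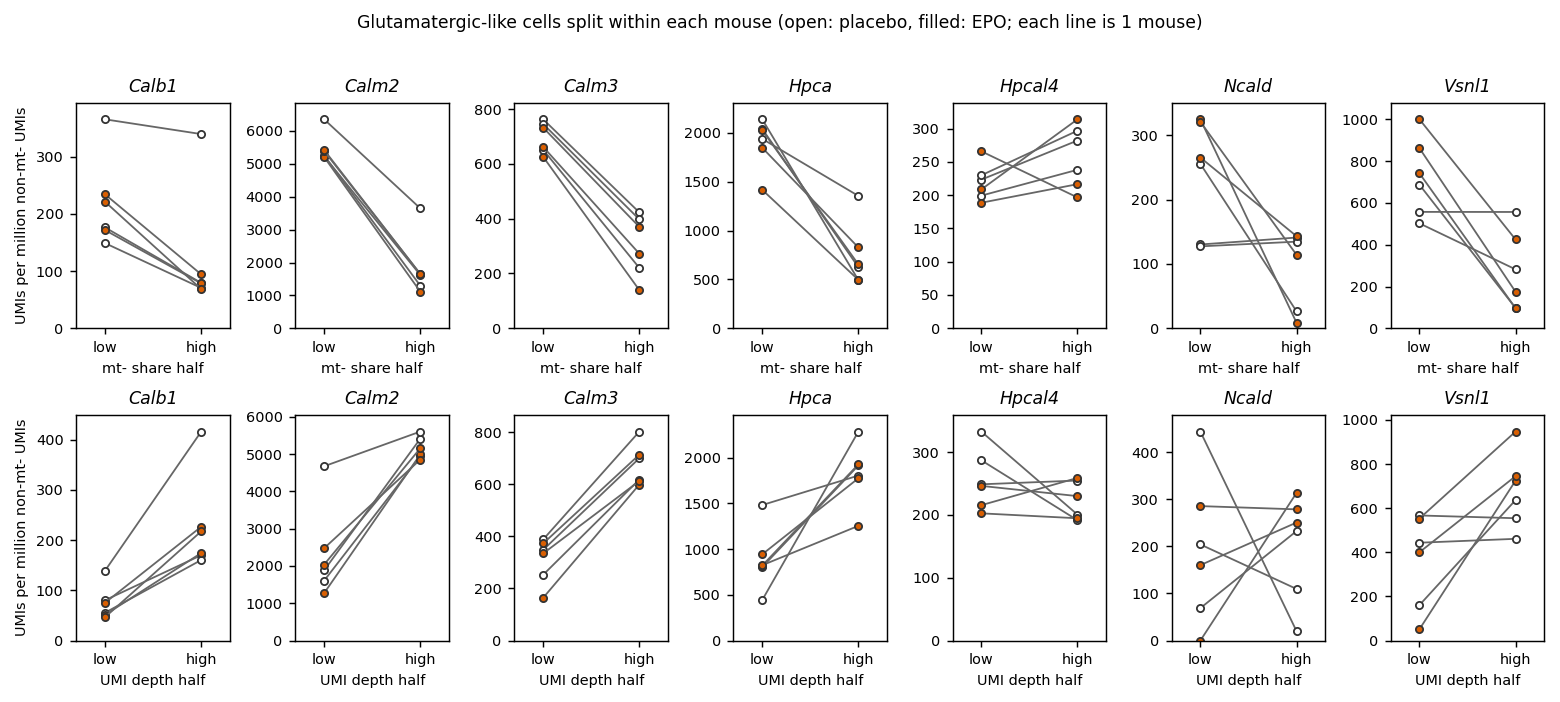
Level of 7 genes in UMIs per 1000000 non-mt- UMIs (vertical axes, linear) in glutamatergic-like cells at or below (low) and above (high) the median mt- share (upper row) or UMI depth (lower row) of their mouse, 1 line per mouse. Calm2, Calm3 and Hpca fall with mt- share and rise with depth in 6 of 6 mice, while Hpcal4 does not.

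EPO was compared with placebo over mice to ask whether the members respond within 6 h. In glutamatergic-like cells, 0 of 7 members tested and 0 of 8333 genes (0%) were called by edgeR, with 185 genes and, of the members, Ncald and Vsnl1 at an unadjusted p under 0.05. DESeq2 and limma called 0 genes as well, while edgeR called 2 genes without placebo mouse 5 and 11 without the filter on low counts, with 0 members among them. Calm2 was at 4390 ± 636.5 CPM in placebo and 4114 ± 395 CPM in EPO mice (SD, n = 3 each), a log2 difference of -0.12 ± 0.212. Calm3 was at 576 ± 71.85 and 536 ± 96.6 CPM, Hpca at 1616 ± 60.5 and 1396 ± 279 CPM, Hpcal4 at 215 ± 26.6 and 211 ± 32.3 CPM and Calb1 at 199.5 ± 120 and 166 ± 29.4 CPM, and the groups overlapped for each of them. Calb2 and Pvalb had 11 and 9 UMIs in all glutamatergic-like cells and could not be compared at this depth.

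Ncald was the 1 of 9 members whose groups did not overlap in glutamatergic-like cells, as for 7.49% of the 8333 genes tested (4.96% with EPO mice higher). It was at 183, 122 and 123 CPM after placebo and at 222, 214 and 272 CPM after EPO (log2 difference 0.64 ± 0.229, unadjusted p = 0.0132, adjusted p = 1 by edgeR). Without the shared barcodes, placebo mouse 1 was at 86.7 CPM and EPO mouse 4 at 211 CPM, and the difference was 1.03 ± 0.232 (adjusted p = 0.429). The share of glutamatergic-like UMIs from clusters 6 and 11, which carried most Ncald, was 19.1%, 9.34% and 15.0% after placebo and 21.1%, 33.15% and 34.1% after EPO. The share of glutamatergic-like cells in these clusters overlapped, at 14.1%, 18.2% and 15.6% after placebo and 11.9%, 20.8% and 22% after EPO. The part of these shares in the difference was not tested. Within cluster 6, the groups overlapped, with 912 and 788 CPM in placebo mice 1 and 5 against 1183, 1161 and 805 CPM after EPO. Vsnl1, also highest in these clusters, was at 498, 422 and 527 CPM after placebo and at 523, 624 and 862 CPM after EPO, which overlapped (log2 difference 0.41 ± 0.189, unadjusted p = 0.0485, adjusted p = 1), and its difference was 0.58 ± 0.210 without the shared barcodes (adjusted p = 1).

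In all retained cells together, where fewer cells of a type and less RNA per cell cannot be told apart, 0 of 7 members and 0 of 10043 genes (0%) were called by edgeR, with 127 genes at an unadjusted p under 0.05, and DESeq2 called 1 gene, which was no member, and limma 0. Without the shared barcodes, edgeR called 0 genes as well, with 204 at an unadjusted p under 0.05. Without placebo mouse 5 that number was 993, with 0 genes called, and without the filter on low counts 52 of 19303 genes were called, with 0 members among them. With the D number as a covariate, edgeR called 1 gene, which was no member. Ncald was at 156, 92.9 and 130 CPM after placebo and at 158, 170 and 248 CPM after EPO, without overlap, as for 5.85% of the genes tested (3.88% with EPO mice higher), with a log2 difference of 0.50 ± 0.251. Calb1 had one of -0.48 ± 0.521. Of the 44 other EF-hand genes, 41 were tested over all cells and 30 in glutamatergic-like cells, with 0 called in either. Shares of glutamatergic-like cells with a UMI did not separate the groups for any of the 9 genes. The share with Vsnl1 was 74.2% ± 18.3 after placebo and 63.9% ± 15.2 after EPO (exact permutation over mice, two-sided, p = 0.5), and that with Calb1 37.8% ± 4.30 and 30.1% ± 6.93 (exact p = 0.2). With 3 mice against 3 this test cannot go below 0.1.

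**Figure D4:**
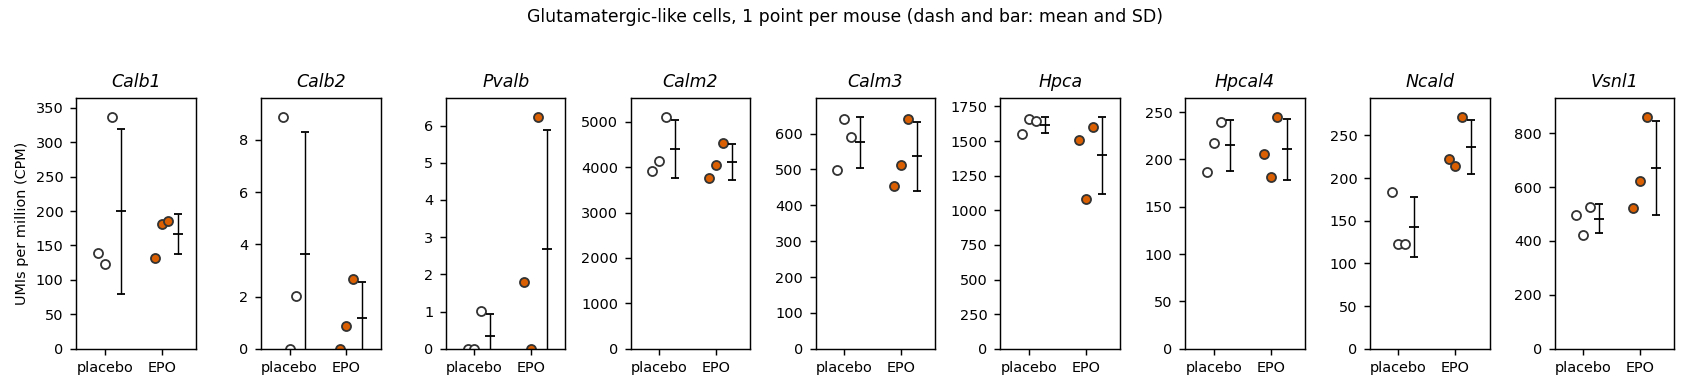
Level of each gene in glutamatergic-like cells in UMIs per 1000000 UMIs (CPM) (vertical axes, linear), 1 point per mouse for 3 placebo and 3 EPO mice, with mean and SD. Placebo and EPO points overlap for each gene but Ncald, where EPO mice sit between 214 and 272 CPM and placebo mice between 122 and 183 CPM.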

How the data were processed

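Drop-seq libraries of CA1 from 6 mice were analysed. Per the submitters' processing notes, bcl2fastq 2.15, STAR 2.4.0 and the build mm10 were used; the annotation is not given in the sources used here. The authors deposited raw UMI counts per gene and barcode, 1000 barcodes a mouse, without normalization. Genes without any UMI in a mouse are given as missing for it and were set to 0 (25311 gene and mouse pairs).

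Barcodes were kept at over 1000 genes, up to 8000, and up to 40% mt- UMIs, and doublets were not removed. Cells were clustered in Seurat 5.3.0 (R 4.3.3; 1000 variable genes per treatment, 20 dimensions, resolution 1) without the 9 genes. A cluster took the class with the highest mean marker level among those with at least 3 markers in at least 10% of its cells; after seeing the data, a name was dropped where that level was not above all other cells. Levels are UMIs per 1000000 (CPM), as mean and SD over mice with at least 5 cells. UMI counts summed per mouse were tested by edgeR 4.0.16 (quasi-likelihood, trimmed mean of M values, filterByExpr, Benjamini-Hochberg at 5%), with the mouse as a block between cells of the same mice. SE is the size of the log2 difference over the square root of F. Shares of cells were compared by two-sided exact permutation tests (scipy 1.17.1), and shares carry exact 95% intervals; a count of 0 allows up to 3 counts. The fits were tested on simulated counts. The members, gene lists and tests were chosen with earlier results of these data known. Named genes are the 9 members, up to 5 other EF-hand genes per direction by adjusted p, and for each member the 3 genes most alike over clusters. Cluster markers and leading genes are named beside their class. Alternatives covered DESeq2 1.42.0, limma 3.58.1, scaling, filters, classes, depth and each mouse left out.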

Additional observations from a re-analysis of the deposited data

Results flagged for a closer look

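In 4 of 20 levels examined over the 4 to 6 mice of a class, 1 mouse lay far from the others by Dixon's ratio. For independent, normally distributed values, chance does this in about 1 of 20 such groups. The 20 levels come from the same 6 mice and are not independent, so no excess over chance can be read from this count. Calb1 in glutamatergic-like cells was at 337 CPM in placebo mouse 5, with the nearest mouse at 186 CPM. Hpca in glutamatergic-like cells was at 1078 CPM in EPO mouse 4, with the nearest at 1509 CPM. Calb1 in GABAergic-like cells was at 775 CPM in placebo mouse 5, with the nearest at 167 CPM. Calm3 in oligodendrocyte-like cells was at 366 CPM in placebo mouse 3, with the nearest at 235 CPM.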

How the results depend on the processing

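Placebo mouse 3 (43 cells), 54 GABAergic-like cells and the barcodes shared by mice 1 and 4 limit precision. The number of members called stayed at 0 for EPO under all 15 alternatives over all cells and all 19 in glutamatergic-like cells, at 3 to 6 for GABAergic-like and 6 to 7 for oligodendrocyte-like cells. For mt- share and for UMI depth it was 0 in the largest cluster alone and 0 with mouse and cluster as blocks, where fewer genes were tested. Without the replicate block, which pairs cells of the same animal, Calm3 in GABAergic-like cells (-0.82) and Calb1 by mt- share (-0.55) lost their calls, and with limma Calm3 (-1.43), Ncald by mt- share (-1.50) and Vsnl1 by depth (1.077).

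The following log2 differences turned their sign; the cause was not tested. EPO, all cells: Calb1 0.02805 with limma; Calm2 -0.07671 with the D number; Hpca 0.0005983 with limma, 0.05094 by library totals, 0.01509 without the filter, 0.02715 at up to 20% mt- and 0.02246 without shared barcodes in both mice. GABAergic-like: Calb1 -0.0572 with limma and -0.17 without the filter; Ncald -0.10 with DESeq2, -0.37 with limma, -0.00671 with DESeq2 size factors, -0.12 by library totals, -0.43 without the filter, -0.02827 without the block, -0.00277 at resolution 2 and -0.04549 with cluster 1 added. mt- share: Vsnl1 0.14 with both blocks. Depth: Hpca -0.56 in the largest cluster; with both blocks, Hpca -0.30, Hpcal4 0.16 and Vsnl1 -0.26; Ncald -0.27 at up to 20% mt-, -0.42 by marker sums and -0.06407 with cluster 1 added.

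Leaving out 1 mouse at a time, sign changes occurred for EPO over all cells in Calb1 (-0.82 to 0.65), Calm2 (-0.16 to 0.44), Calm3 (-0.23 to 0.05321), Hpca (-0.20 to 0.23) and Hpcal4 (-0.0152 to 0.42), for EPO in glutamatergic-like cells in Calb1 (-0.66 to 0.23) and Hpcal4 (-0.12 to 0.03091), for GABAergic-like cells in Calb1 (-0.33 to 0.46) and Ncald (-0.48 to 0.20), and for depth in Ncald (-0.13 to 0.53). Thinned to 1500 UMIs, 22 of 27 shares of cells by class left their interval, and the EPO minus placebo difference in glutamatergic-like cells became -0.409 percentage points for Calm2, -7.40 for Calm3, -6.91 for Hpcal4 and 0.231 for Ncald. All 189 alternatives of mean levels stayed within 1 SD. For those that leave out 1 mouse this was fixed in advance, since dropping 1 value cannot move a mean that far.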
